A study of Mus musculus with 2 samples.

Results

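The exon junction complex and the nonsense-mediated decay pathway were followed through 10 genes in mouse testis: Cwc22, Eif4a3, Magoh, Magohb, Rbm8a, Casc3, Upf1, Upf2, Upf3a and Upf3b. The genes were listed by name for their role, with no threshold on their values, although earlier results of these data were known when the list was made. They were found through the numeric gene IDs of the deposited table, where all 10 were present among 40269 IDs matched to a symbol. Testis RNA was taken from balb/c mice on postnatal day 45, and a comparison was made between a library from animals labelled as exposed to BPA (bisphenol A, a plastics monomer with estrogen-like activity) and a control library, whose title carries no treatment. In each group 3 samples were mixed into 1 library, called here the BPA pool and the control pool, so the spread between animals was not measured, no test between the conditions was possible, and no difference given here has a replicate check. Both groups share strain, tissue and age. The labels give no genetic alteration, and the sources used here state neither the dose, route and length of exposure nor the vehicle of the controls.

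The exon junction complex is a set of proteins that the spliceosome leaves on a messenger RNA just upstream of each joined exon pair. CWC22 brings the RNA helicase EIF4A3 to the spliceosome, EIF4A3 clamps the RNA, the MAGOH and RBM8A pair locks the clamp, and CASC3 completes the cytoplasmic complex. When a ribosome stops well upstream of such a mark, UPF3A or UPF3B and UPF2 connect the complex to the helicase UPF1, whose phosphorylation recruits decay factors to the transcript. In mouse testis UPF2 is needed for spermatogenesis in both germ cells and Sertoli cells, and UPF3A is known to be abundant in germ cells.

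Magoh and Cwc22 have close relatives whose sequences bear on how their reads can be counted. Magoh and Magohb encode almost the same protein, yet their coding sequences differ at many bases. Of 437 aligned coding bases 356 were identical (81.5%), and the longest identical run was 17 bases. The stretches below, the start of the Magoh coding sequence at chr4:107879858-107880924 on the plus strand and its Magohb counterpart at chr6:131289416-131293159 on the minus strand (GRCm38, GENCODE coding sequences, 5′ to 3′, introns removed), differ at 28 of 120 bases. Capitals mark the bases that differ.
Magoh: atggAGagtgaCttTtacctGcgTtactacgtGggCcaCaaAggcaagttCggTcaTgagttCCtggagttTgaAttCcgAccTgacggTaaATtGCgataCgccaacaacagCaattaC
Magohb: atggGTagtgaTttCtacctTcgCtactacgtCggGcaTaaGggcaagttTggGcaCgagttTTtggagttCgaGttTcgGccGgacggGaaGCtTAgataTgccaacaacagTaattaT
No run of 50 bases of either gene occurred in a gene at another locus, so no read of that length matches both. Casc3, Upf1 and Upf2 likewise shared no such run with a gene at another locus. The search covered annotated transcripts and not the rest of the genome.

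Cwc22 was the contrary case. A cluster of 7 genes on the same chromosome, annotated by RefSeq as pseudogenes, between 83955605 and 83993518 and about 6 Mb from Cwc22, carries near copies of its coding sequence. Against the copy Gm13698, for which GENCODE gives a coding sequence, 2432 of 2471 aligned coding bases were identical (98.4%), with a longest identical run of 344 bases. The stretches below, from Cwc22 at chr2:77931493-77936594 on the minus strand and Gm13698 at chr2:83955721-83955840 on the plus strand, show the likeness, with the 3 differing bases of 120 in capitals.
Cwc22: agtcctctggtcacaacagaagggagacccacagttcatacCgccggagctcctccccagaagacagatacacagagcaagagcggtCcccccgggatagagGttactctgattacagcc
Gm13698: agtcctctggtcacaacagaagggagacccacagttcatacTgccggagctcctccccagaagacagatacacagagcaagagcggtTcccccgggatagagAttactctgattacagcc
Of the 6997 words of 50 bases in Cwc22 exons, 1154 (16.5%) occurred at other loci. The deposited table lists 2 of the 7 copies at 0 in both libraries and gives no value for the other 5. A further gene that is not among the 7, Gm7340, also shares such words, and its value was not examined here. The sources used here do not say how reads with several matching loci were treated. The level of Cwc22 is therefore uncertain, at least to the extent of the shared words. That share counts exact matches over all annotated transcripts, whose exons cover 6822 bases, while the longest coding transcript has 3471 bases. Matches with a mismatch are not counted in it, so the uncertain part can be larger.

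Levels are given in CPM, the reads of a gene on a scale common to both libraries. Those of 1 CPM or more are as the authors deposited them. Each printed level above 0 and under 1 CPM was worked back from the deposited fold change. Read numbers were inferred from the steps between the deposited values, with 1 read to a step. Values under 1 CPM are written as 0 and could not be checked directly. The 1404 of these that were worked back from the deposited fold change came out whole within 0.01 read. With 1 read to a step, the values came to 45162887 reads in the BPA pool and 41711330 reads in the control pool. Listed above 0 were 18571 genes in the BPA pool and 18796 in the control pool. Intervals in parentheses are 95% intervals from the reads (Clopper-Pearson for ratios and shares, exact Poisson for levels) and cover counting error only, since reads can be PCR copies of 1 molecule and the animals of a pool are mixed. Log2 ratios are the log2 of BPA CPM over control CPM, each with a pseudocount of 0.1 added, which understates the change of low genes. In whole tissue, fewer cells of a type and less RNA per cell cannot be told apart.

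Markers of the labelled tissue were high in both libraries. The 5 elongating spermatid markers, among them the protamines, summed to 16027 CPM in the BPA pool and 15004 CPM in the control pool, and the 6 spermatocyte markers to 1359 CPM in the BPA pool and 1334 CPM in the control pool. Of 8 fat cell markers 6 were lower in the BPA pool by the 2-fold rule given below. Summed, all 8 came to 27.0 CPM in the BPA pool against 85.2 CPM in the control pool. The other 2 markers were within 2-fold. Adipoq stood at 15.4 CPM in the BPA pool and 17.2 CPM in the control pool (log2 ratio -0.16). Plin1 stood at 4.47 CPM in the BPA pool and 4.88 CPM in the control pool (-0.12). Cidec, Cfd and Lep are listed at 0 in the BPA pool, and their values there were worked back from the deposited fold change. The 8 Sertoli cell markers, 1 of them (Rhox8) lower by that rule, summed to 195 CPM in the BPA pool and 163 CPM in the control pool with a median log2 ratio of 0.35. Of the 4 epididymis markers, Defb20 and Crisp1 are listed at 0 in both libraries, and Lcn5 and Lcn8 carry no value. The part of these differences in the levels of the 10 genes was not tested.

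All 10 genes were well above the floor of 1 CPM, at 5.51 to 346 CPM in the BPA pool and 6.20 to 361 CPM in the control pool. By the rule used for size, a log2 ratio of at least 1 in either direction with at least 1 CPM in the higher library, 0 of the 10 were higher and 0 were lower in the BPA pool. The same rule took 635 of 19389 genes at the floor, a background of 3.28% (1.32% higher and 1.95% lower), so that 10 genes would hold few or none at that share. The median log2 ratio of the 10 genes was -0.06, and that of all genes at the floor was 0.00. Of the 10, 3 had a log2 ratio above 0 and 7 below 0. Summed over the 10 genes, the BPA pool held 775 CPM and the control pool 819 CPM.

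**Figure D1:**
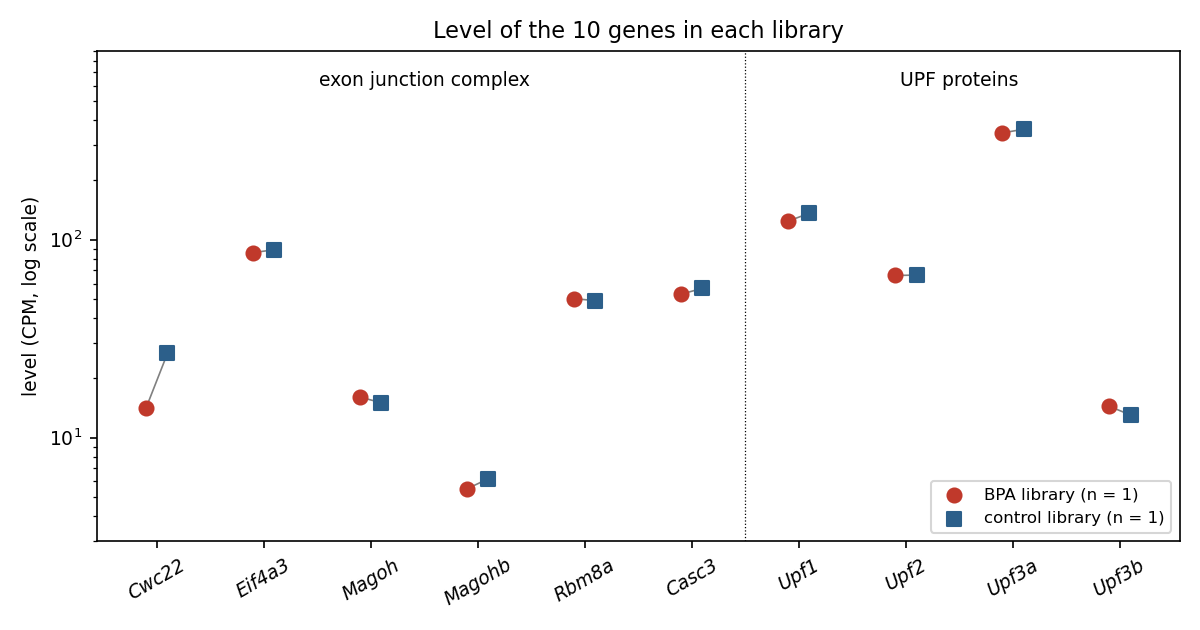
Level of each of the 10 genes in CPM (log axis) in the BPA pool and in the control pool, 1 pooled library each. The points of 9 genes nearly coincide, while Cwc22 stands at 14.1 CPM in the BPA pool and 26.6 CPM in the control pool.

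Cwc22, which hands EIF4A3 to the splicing machinery, had the largest difference of the set. It stood at 14.1 CPM (642 reads) in the BPA pool and 26.6 CPM (1110 reads) in the control pool. The BPA pool was thus the lower one, 1.88-fold (1.70 to 2.07), a log2 ratio of -0.90. The interval of that ratio spans 2-fold, so the reads do not settle on which side of the size rule the pair of libraries lies. Among 5051 genes whose mean level was within 2-fold of that of Cwc22, 62 (1.23%) had a log2 ratio as far from 0 or farther. Cwc22 was singled out as the largest difference of 10 genes. That share therefore does not measure how unusual it is for such a set to hold a gene this far apart. At a 1.5-fold rule Cwc22 was the only one of the 10 genes to pass, beside a background of 9.64% of all genes. In the authors' deposited table Cwc22 has a log2 fold change of -0.91, a p-value of 0.0509 and a q-value of 0.99996. The gene (ID 80744) spans chr2:77881159-77946356 on the minus strand, and 187 bases of its exons overlap the annotated gene Gm13727.

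The helicase that CWC22 delivers did not share that difference. Eif4a3, the RNA clamp at the centre of the complex, stood at 86.0 CPM (3901 reads) in the BPA pool and 88.9 CPM (3717 reads) in the control pool. Its ratio was 0.967 (0.924 to 1.01), and 63.5% of genes at a like level were as far apart or farther. The gene (ID 192170, chr11:119288363-119300043, minus strand) shares 16.5% of its 50-base words with 3 copies elsewhere, as large a share as for Cwc22. Its relatives Eif4a3l2, listed at 0 in both libraries, and Eif4a3l1, with no value, are among those copies. The cytoplasmic translation helicases Eif4a1 and Eif4a2, relatives outside the complex, stood at 132 and 165 CPM in the BPA pool and at 127 and 157 CPM in the control pool.

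The proteins that lock the clamp were close between the libraries. Magoh (ID 17149, chr4:107879755-107887424, plus strand) stood at 16.0 CPM in the BPA pool and 15.0 CPM in the control pool, a ratio of 1.07 (0.959 to 1.19). Magohb (ID 66441, chr6:131284389-131293244, minus strand), its close homologue, stood at 5.51 CPM in the BPA pool and 6.20 CPM in the control pool, a ratio of 0.889 (0.744 to 1.06). The BPA pool was the higher one for Magoh and the lower one for Magohb, and both intervals include equal levels. Not adjusted for length, Magoh took 74.4% of the reads of the pair (71.5 to 77.1, 725 of 975) in the BPA pool and 70.7% (67.6 to 73.7, 625 of 884) in the control pool, and these intervals overlap. Rbm8a (ID 60365, chr3:96629928-96633791, plus strand), which encodes Y14, the partner of both MAGOH proteins, stood at 50.3 CPM in the BPA pool and 49.2 CPM in the control pool, a ratio of 1.02 (0.963 to 1.09). Of its words 6.03% occur in the intronless Rbm8a2, which is listed at 0 in both libraries. A pseudogene, Gm44958, overlaps 520 bases of Magohb exons.

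Casc3, the cytoplasmic subunit of the complex also called MLN51 or Barentsz, lay close to equal levels. It stood at 53.0 CPM (2406 reads) in the BPA pool and 56.8 CPM (2376 reads) in the control pool, 1.07-fold lower in the BPA pool (1.01 to 1.14). Its location is chr11:98809808-98833807 on the plus strand (ID 192160). Of its exons 494 bases overlap Gm12359, and a smaller part overlaps Msl1. The reads of overlapping genes cannot be told apart if strand was not recorded, and no strand-marking step is described in the protocols.

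**Figure D2:**
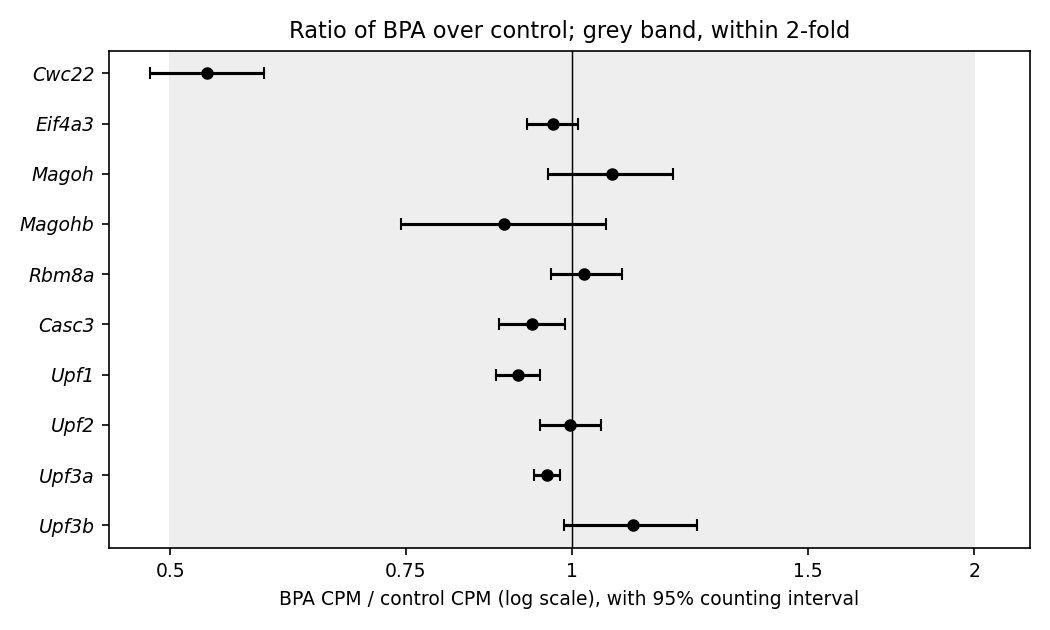
Ratio of CPM in the BPA pool over the control pool for each of the 10 genes on a log2 scale, with 95% counting intervals as bars and a grey band for ratios within 2-fold. Cwc22 lies at 0.533 (0.483 to 0.588), its interval crossing the lower edge of the band, and the other 9 genes lie between 0.889 and 1.11.

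Upf1, the ATP-dependent helicase on which decay depends, was the member after Cwc22 whose counting interval lay farthest below equal levels. It stood at 124 CPM (5607 reads) in the BPA pool and 136 CPM (5673 reads) in the control pool, 1.10-fold lower in the BPA pool (1.06 to 1.14). Of genes at a like level 17.4% were as far apart or farther, so differences of that size were common between these libraries. Upf1 (ID 19704) spans chr8:70331493-70353423 on the minus strand. Of its exons 68 bases overlap Cers1, and a smaller part overlaps Gdf1.

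Upf2, the bridge between UPF3 proteins and UPF1, was the most nearly equal of the 10 genes. It stood at 65.9 CPM (2989 reads) in the BPA pool and 66.2 CPM (2767 reads) in the control pool, a ratio of 0.995 (0.945 to 1.05). The gene (ID 326622) spans chr2:5951447-6056703 on the plus strand.

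The paralogues that bind the exon junction complex lay on opposite sides of 0. Upf3a (ID 67031, chr8:13785055-13798723, plus strand), the autosomal copy, stood at 346 CPM (15703 reads) in the BPA pool and 361 CPM (15111 reads) in the control pool, a ratio of 0.957 (0.936 to 0.979). Upf3b (ID 68134, chrX:37091678-37110471, minus strand), the X-linked copy, stood at 14.4 CPM (654 reads) in the BPA pool and 13.0 CPM (545 reads) in the control pool, a ratio of 1.11 (0.985 to 1.24). Upf3a took most reads of the pair in both libraries, not adjusted for length, with 96.0% (95.7 to 96.3, 15703 of 16357) in the BPA pool and 96.5% (96.2 to 96.8, 15111 of 15656) in the control pool. Shared words came to 0.877% for Upf3a and 1.00% for Upf3b.

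For 4 of the 10 genes, Cwc22, Casc3, Upf1 and Upf3a, the counting interval does not include equal levels, and in each of them the BPA pool had the lower value. Over all 19389 genes, 8365 intervals did not include equal levels, a background of 43.1% in either direction, with 21.8% higher and 21.3% lower in the BPA pool. The share of the 10 genes in either direction stood near that background, with 0 higher and 4 lower, and such an interval says nothing of the spread between animals. In the authors' deposited table the q-value was 0.99996 for each of the 10 genes, and the p-values of the other 9 were 0.463 for Upf1, the lowest, to 0.989 for Upf2. The table calls 28 of 29279 genes with a fold change (0.0956%), and none of the 10.

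**Figure D3:**
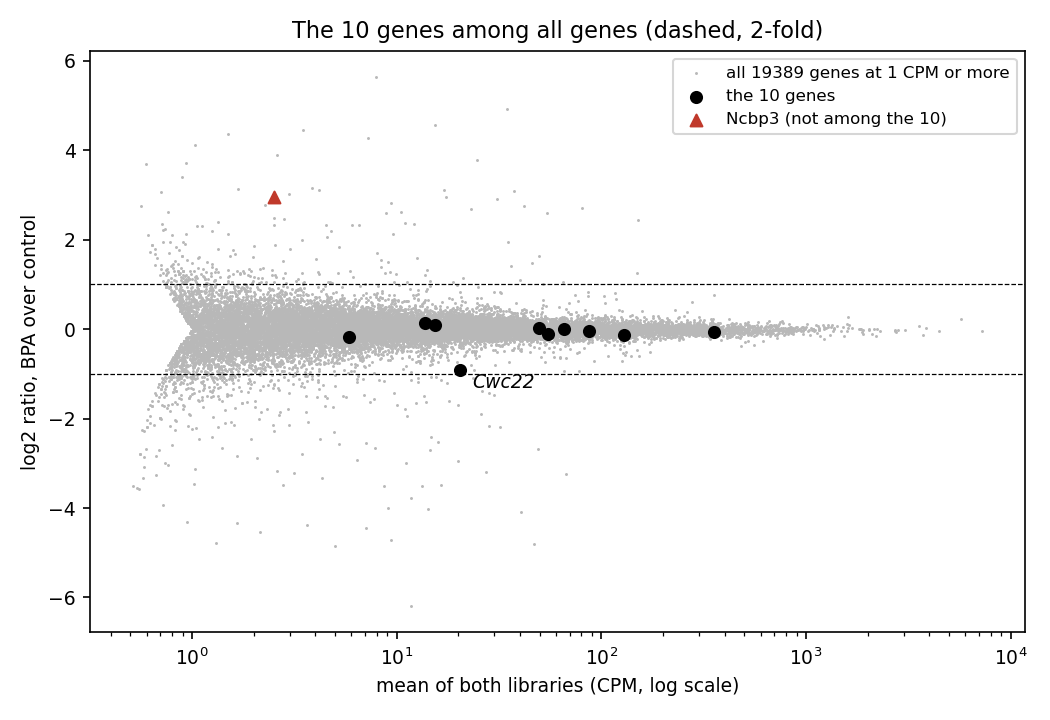
Mean level (log axis) against log2 ratio of BPA over control for 19389 genes at the floor (grey) and the 10 genes (black), with Cwc22 named, Ncbp3 as a red triangle and dashed lines at the 2-fold limits. The 10 genes lie inside the limits, Cwc22 nearest to the lower line at -0.90, and Ncbp3, which is not among the 10, lies at 2.95.

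Between genes, levels were compared per kb of the union of annotated exons. In the BPA pool Upf3a led with 59.0 CPM per kb (58.1 to 59.9), before Eif4a3 with 40.5 (39.3 to 41.8) and Upf1 with 26.8 (26.1 to 27.5). Magoh followed with 20.7 CPM per kb, Rbm8a with 15.6, Casc3 with 12.3 (11.8 to 12.8) and Upf2 with 12.0 (11.6 to 12.5). Upf3b with 3.60 CPM per kb (3.33 to 3.89), Magohb with 3.20 (2.82 to 3.63) and Cwc22 with 2.07 (1.92 to 2.24) closed the order. The intervals of Casc3 and Upf2 overlapped in the BPA pool, as did those of Upf3b and Magohb, so these neighbours are not ordered by the reads.

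The control pool gave the same first 7 places. There Upf3a had 61.6 CPM per kb, Eif4a3 41.9, Upf1 29.4, Magoh 19.4, Rbm8a 15.3, Casc3 13.2 (12.7 to 13.8) and Upf2 12.1 (11.6 to 12.6). The last 3 places differed: Cwc22 stood at 3.89 CPM per kb (3.67 to 4.13), ahead of Magohb at 3.60 (3.18 to 4.07) and Upf3b at 3.26 (2.99 to 3.55). Cwc22 was thus in place 10 of 10 in the BPA pool and in place 8 in the control pool, where its interval overlapped that of Magohb. The intervals of Magohb and Upf3b overlapped there too, so the reads order neither pair in the control pool. Per kb, Upf3a exceeded Upf3b 16.4-fold in the BPA pool and 18.9-fold in the control pool, and Magoh exceeded Magohb 6.48-fold in the BPA pool and 5.39-fold in the control pool. With the length of the longest protein-coding transcript, the order was the same in each library, but these ratios became 27.4 in the BPA pool and 31.6 in the control pool for the UPF3 pair, and 3.76 in the BPA pool and 3.13 in the control pool for the MAGOH pair.

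The genes around the complex were described through 8 further lists of 115 genes, of which 109 reached the floor. By the size rule 1 of the 109 was higher in the BPA pool and 0 were lower. Over all genes at the floor the background was 1.32% higher and 1.95% lower, and the lists did not exceed it. Of the 109 log2 ratios 61 were above 0 and 48 below, with a median of 0.01. The gene that passed was Ncbp3, a cap-binding protein that joins the export machinery, in the list of peripheral and disassembly factors. It stood at 4.54 CPM (206 reads) in the BPA pool and 0.502 CPM (21 reads) in the control pool, 9.04-fold higher in the BPA pool (5.76 to 14.9). It reached the floor in the BPA pool only, and its control value was worked back from the deposited fold change. The other 9 factors of that list, which include the peripheral proteins ACIN1, PNN and RNPS1 and the ribosome-bound remover PYM1, lay between log2 ratios of -0.15 and 0.10.

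Export factors of the TREX complex, which the exon junction complex helps to recruit, had 17 of 18 members at the floor, 0 past the size rule and a median log2 ratio of 0.01. Sarnp stood at 17.5 CPM in the BPA pool and 11.1 CPM in the control pool, 1.57-fold higher in the BPA pool (1.40 to 1.76), but 36.8% of its words occur at other loci. Thoc2, the large scaffold subunit of the THO complex, stood at 20.3 CPM in the BPA pool and 16.3 CPM in the control pool (log2 ratio 0.32).

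Downstream of UPF1, 12 of 13 kinase and effector genes reached the floor and 0 passed the size rule. The list holds the UPF1 kinase Smg1, the endonuclease gene Smg6 and the adaptor gene Smg5. Their log2 ratios ran from -0.10 to 0.08, with a median of -0.03, and the summed level was 1510.5 CPM in the BPA pool and 1534 CPM in the control pool. Ruvbl2, an ATPase that acts with SMG1 on UPF1, stood at 196 CPM in the BPA pool and 210.3 CPM in the control pool. Its log2 ratio, -0.10, was at the low end of that range.

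The translation termination and poly(A) binding list, whose products act with UPF1 at a stop codon, had 11 of 11 members at the floor, 0 past the size rule and a median log2 ratio of 0.01. Pabpc1l, a germ cell poly(A)-binding protein gene, stood at 4.14 CPM in the BPA pool and 3.18 CPM in the control pool (log2 ratio 0.37). Gspt1, which encodes the release factor eRF3a, stood at 70.1 CPM in the BPA pool and 77.8 CPM in the control pool (-0.15). Of the enzymes that remove the cap, shorten the tail and digest the RNA, 31 of 31 reached the floor and 0 passed the size rule, with a median log2 ratio of 0.02. Skiv2l, the helicase of the cytoplasmic exosome, stood at 15.3 CPM in the BPA pool and 10.7 CPM in the control pool (0.52). Cnot6l, a deadenylase of the CCR4-NOT complex, stood at 16.8 CPM in the BPA pool and 13.2 CPM in the control pool (0.34).

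Among genes whose transcripts have been reported as targets of nonsense-mediated decay in mammalian cells, levels were close between the libraries. Of 11 such genes 10 reached the floor, 0 passed the size rule, and the log2 ratios ran from -0.29 to 0.16 with a median of 0.00. Their summed level was 254 CPM in the BPA pool and 255 CPM in the control pool. Snhg5, a host gene of small nucleolar RNAs, stood at 7.12 CPM in the BPA pool and 8.73 CPM in the control pool (-0.29), and the stress factor gene Ddit3 at 51.9 CPM in the BPA pool and 58.8 CPM in the control pool (-0.18). These are gene totals, and the spliced forms that the pathway degrades were not analysed here.

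The catalytic spliceosome factors that surround CWC22 had 16 of 16 members at the floor, 0 past the size rule and a median log2 ratio of 0.02. Their summed level was 718 CPM in the BPA pool and 717 CPM in the control pool. Cdc5l, a core subunit of the PRP19 complex, stood at 40.3 CPM in the BPA pool and 30.4 CPM in the control pool (0.41), with 34.8% of its words shared with other loci. Isy1, another subunit of the same assembly, stood at 11.7 CPM in the BPA pool and 13.1 CPM in the control pool (-0.17). The log2 ratio of Cwc22, -0.90, was thus below the range of this list, -0.17 to 0.41.

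**Figure D4:**
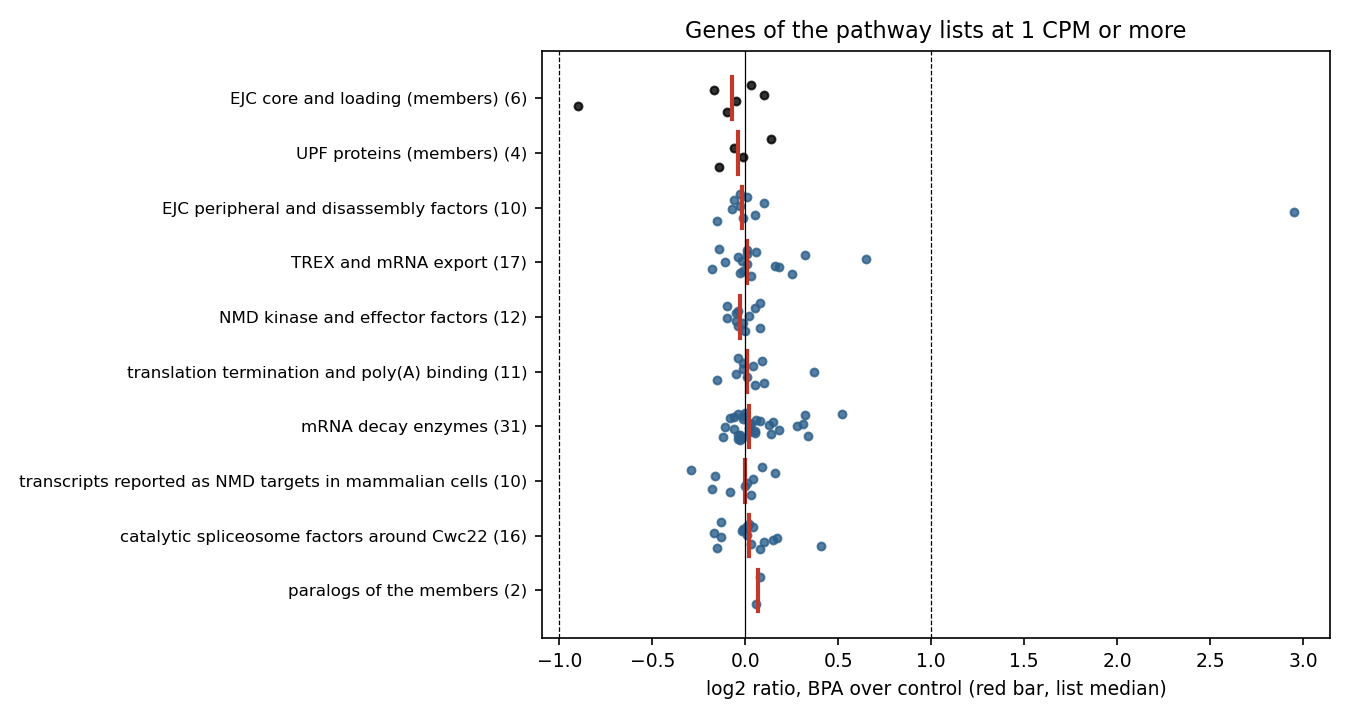
Log2 ratio of BPA over control for each gene at the floor in the 2 member groups and the 8 further lists, 1 point a gene, with a bar at each list's median and dashed lines at the 2-fold limits. Ncbp3 at 2.95 is the only point outside the limits, and Cwc22 at -0.90 is the lowest.

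The neighbourhood of each of the 10 genes was described through genes at the floor within 1 Mb. Of 297 such neighbours 14 passed the size rule, 8 higher and 6 lower in the BPA pool, which is 4.71% beside the background of 3.28% for all genes. Of the 14, 6 were under 1 CPM in the lower library and reached the floor only through the higher one. These were Mast3, Cfap97d2, Gm31460, H3c14, Gm26553 and Nudt17. No neighbour of Eif4a3, Magoh, Magohb or Upf2 passed the rule.

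Near Cwc22, 1 of 8 neighbours passed. That gene, 4930440I19Rik, 105 kb away, stood at 2.36 CPM in the BPA pool and 4.98 CPM in the control pool, 2.11-fold lower in the BPA pool (1.66 to 2.69). It was thus lower in the same pool as Cwc22, on 107 reads in the BPA pool and 208 in the control pool. Of the 8 neighbours 6 had a log2 ratio above 0 and 2 below 0. Gm39864 stood at 4.39 CPM in the BPA pool and 2.32 CPM in the control pool (log2 ratio 0.89), Sestd1 at 27.5 CPM in the BPA pool and 24.2 CPM in the control pool, and Zfp385b at 14.5 CPM in the BPA pool and 13.9 CPM in the control pool. Ube2e3, the other neighbour below 0, stood at 32.3 CPM in the BPA pool and 33.5 CPM in the control pool (-0.05). These 4 were picked after their values were seen.

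Near Upf1, 4 of 59 neighbours passed, and they lay together in 138 kb of chromosome 8, from 70701321 to 70839720, with 6 genes at the floor in all. Iqcn stood at 52.9 CPM in the BPA pool and 19.9 CPM in the control pool, 2.66-fold higher in the BPA pool (2.46 to 2.88). Pik3r2, a regulatory subunit of phosphoinositide 3-kinase, stood at 4.05 CPM in the BPA pool and 1.03 CPM in the control pool, 3.94-fold higher (2.82 to 5.63). The kinase gene Mast3 stood at 2.31 CPM in the BPA pool and 0.359 CPM in the control pool, 6.45-fold higher (3.74 to 11.9). Arrdc2, an arrestin domain gene at the end of the stretch, was the exception, with 1.56 CPM in the BPA pool and 4.38 CPM in the control pool, 2.80-fold lower in the BPA pool (2.12 to 3.73).

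Near Upf3a, 3 of 27 neighbours passed, all lower in the BPA pool. Rasa3, a Ras GTPase activator 107 kb away, stood at 11.4 CPM in the BPA pool and 52.5 CPM in the control pool, 4.62-fold lower (4.19 to 5.09), and is called in the authors' deposited table. Dlgap2 stood at 9.52 CPM in the BPA pool and 20.0 CPM in the control pool, 2.10-fold lower (1.87 to 2.36). Cfap97d2, 40.5 kb from Upf3a, stood at 0.375 CPM in the BPA pool and 1.05 CPM in the control pool, 2.81-fold lower (1.57 to 5.25). Upf3a itself, which lies between Cfap97d2 and Dlgap2, had a ratio of 0.957.

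The last called neighbours lay near Upf3b, Casc3 and Rbm8a. Rhox8, a homeobox gene of Sertoli cells 764 kb from Upf3b, stood at 1.43 CPM in the BPA pool and 9.04 CPM in the control pool, 6.31-fold lower (4.84 to 8.35). Near Casc3, 2 of 38 neighbours were higher in the BPA pool, the chemokine receptor gene Ccr7 at 3.57 CPM in the BPA pool and 1.36 CPM in the control pool, and Gm31460 at 1.67 CPM in the BPA pool and 0.478 CPM in the control pool. Near Rbm8a, 3 of 53 were higher in the BPA pool. These were H3c14 at 1.30 CPM in the BPA pool and 0.574 CPM in the control pool, Gm26553 at 1.32 CPM in the BPA pool and 0.574 CPM in the control pool, and Nudt17 at 1.10 CPM in the BPA pool and 0.478 CPM in the control pool.

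**Figure D5:**
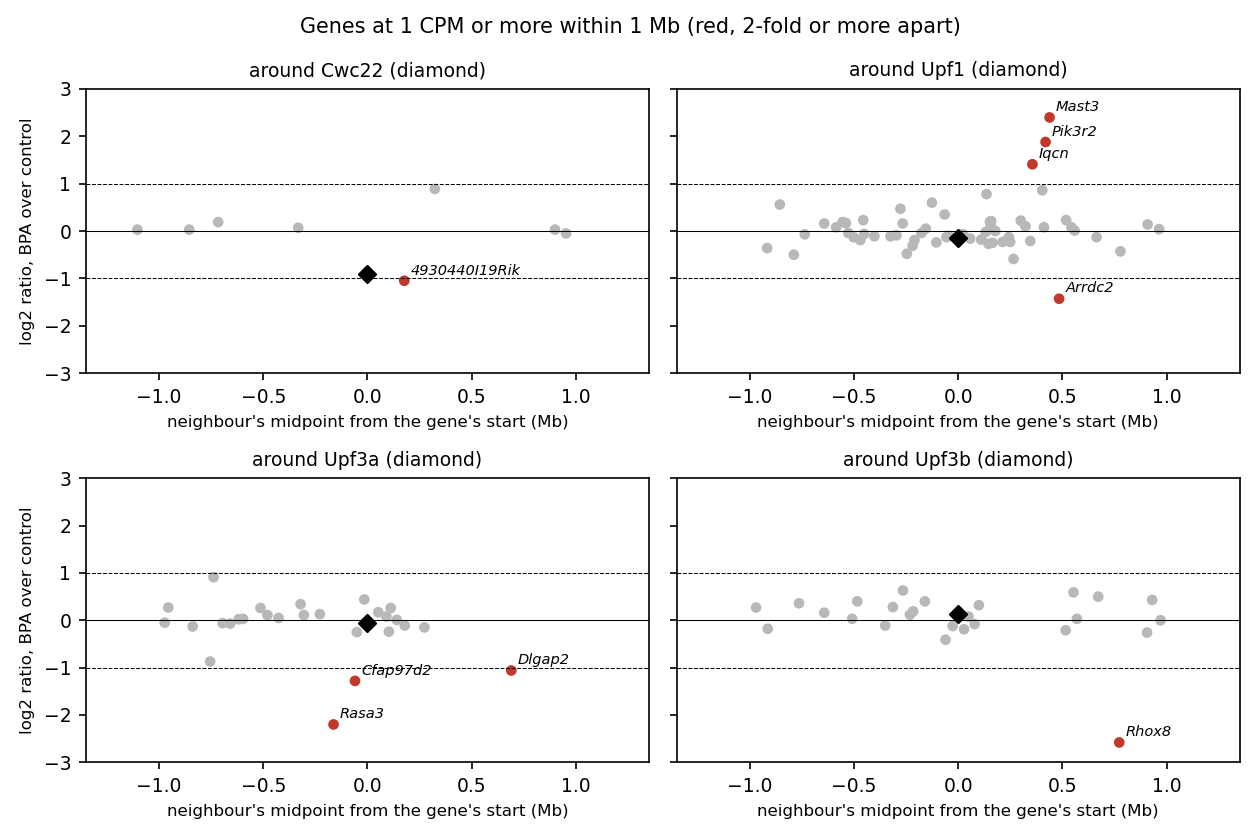
Log2 ratio of BPA over control of genes at the floor within 1 Mb of Cwc22, Upf1, Upf3a and Upf3b (1 panel each, the gene itself as a black diamond), against the distance in Mb from that gene's start to the neighbour's midpoint along the chromosome, with dashed lines at the 2-fold limits. Genes past the limits are red and named: 4930440I19Rik near Cwc22, the stretch of 4 near Upf1, the 3 near Upf3a and Rhox8 near Upf3b.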

How the data were processed

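Poly(A) RNA of 2 testis libraries was measured, 1 from the BPA group and 1 from the control group, each a pool of 3 samples. RNA was isolated with Trizol, selected with oligo(dT) beads and copied from random hexamers, per the labels' protocols. HISAT2 2.0.4, HTSeq 0.6.1 and build mm10 are named, per the submitters' processing notes. Annotation, strand setting and scaling were not given in the sources used here. For 44002 rows, of which 10618 are empty, the authors deposited 1 value per library, with p-values, q-values and log2 fold changes. Despite a heading that names read counts, the deposited values are CPM, with sums of 995266 in the BPA pool and 997834 in the control pool, and values under 1 are written as 0. In the authors' deposited table, log2 fold change and log2 ratio of CPM differ by at most 4.98e-05 in the 17978 genes above 0 in both pools.

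The deposited CPM values are whole multiples of 0.0220 in the BPA pool and 0.0239 in the control pool, taken as 1 read each. Values written as 0 beside a deposited fold change were filled from it, 812 in the BPA pool and 592 in the control pool, and all 1404 came out whole within 0.01 read. Reads serve only for counting intervals. No count model was fitted, since no library has a replicate and whole reads could not be checked directly on the values written as 0. The code for the counting intervals and the size rule was tested on simulated data, which holds counting error only. Symbols and positions came from RefSeq (GRCm38.p6) through 40269 of 41571 numeric IDs, and exons, coding sequences and 50-base words from GENCODE on the same build. Sequences were read from that genome.

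The 10 genes, the lists and the rules were chosen with earlier results of these data known. Named are all 10 genes, each list member or neighbour within 1 Mb that passed the size rule, and otherwise the 2 largest log2 ratios of a list. A gene named by this rule is not reported here. Alternatives covered scaling, pseudocount, floor, fold, the treatment of listed zeros and the length used. Python 3.11.15 was used with numpy 2.4.6, pandas 2.3.3, scipy 1.17.1, Biopython 1.88 and matplotlib 3.10.9.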

Additional observations from a re-analysis of the deposited data

How the results depend on the processing

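No paired analysis was possible because each group has 1 library, and for the same reason no library could be left out. The log2 ratios of the 10 genes kept their direction and stayed inside their counting intervals under the settings tried (80 of 80 values). Part of this was fixed in advance. A floor of 4 CPM and listed zeros taken as 0 could not move them, since all 10 genes were above 4 CPM in both libraries. With no floor the deposited fold change was used, which is the same ratio without a pseudocount. The 3 other scalings shifted all log2 ratios by 0.004, -0.007 and -0.008. Of 304 recomputed values 278 were close to those reported. Counts over all genes moved: higher and lower genes numbered 256 and 379 as reported, 82 and 123 with a pseudocount of 1 CPM, 99 and 127 with none and only genes listed above 0 in both libraries, 80 and 103 at a floor of 4 CPM, and 1938 and 2582 with no floor. They numbered 828 and 1042 at 1.5-fold, 55 and 85 at 4-fold, 100 and 162 where the nearer interval bound had to pass, and 686 and 937 with listed zeros taken as 0. With no pseudocount Ncbp3, listed at 0 in the control pool, dropped out, leaving 0 higher genes in its list. With no floor, by the deposited fold change, 1 effector gene (Smg8), 1 decay target (Atf3) and 1 paralogue (Rbm8a2) were lower. At 1.5-fold 1 of the 10 genes (Cwc22) was lower and 1 export gene (Sarnp) higher. The settings of pseudocount, floor, fold, interval bound and listed zeros widen or narrow the rule by construction. The scalings instead shift all ratios in 1 direction, and the transcript length does not enter the rule. Listed zeros as 0 and transcript length, which gave Magoh over Magohb as 3.76 in the BPA pool and 3.13 in the control pool, and Upf3a over Upf3b as 27.4 in the BPA pool and 31.6 in the control pool, were chosen after seeing the data.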

Other observations

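The only gene of the 8 surrounding lists past 2-fold, Ncbp3, lies on chromosome 11 beside Itgae, an integrin gene 6.93 kb away. Itgae stood at 10.2 CPM in the BPA pool and 46.4 CPM in the control pool, 4.53-fold lower in the BPA pool (4.09 to 5.02), and is called in the authors' deposited table. Ctns, the lysosomal cystine transporter gene 99.6 kb from Ncbp3, stood at 0.573 CPM in the BPA pool and 1.79 CPM in the control pool, 3.13-fold lower (1.98 to 5.10). Haspin, whose gene lies inside the span of Itgae and which encodes a histone kinase of dividing and haploid germ cells, stood at 597 CPM in the BPA pool and 609 CPM in the control pool.

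Close to Upf1, 2 genes between the called neighbours were within 2-fold. Rab3a, a vesicle GTPase gene between Iqcn and Pik3r2, stood at 2.38 CPM in the BPA pool and 1.27 CPM in the control pool (log2 ratio 0.86), and Ifi30 beside it at 3.55 CPM in the BPA pool and 3.35 CPM in the control pool (0.08). Haspin, Rab3a and Ifi30 were picked after their values were seen.

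The export helicase gene Ddx39b, the SMG1 partner gene Smg8 and the stress gene Atf3 are listed at 0 in both libraries, which says only that the deposited values were under 1 CPM. Of 3783 exon bases of Ddx39b 90 overlap Mir8094, and no larger part overlaps Gm22589. The part of that overlap in its value was not tested.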
